A study of Mus musculus with 12 samples.

Results

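Liver RNA from the arm of an 80% hepatectomy that carries the label HC (PH80_HC) was set against liver RNA from the standard 70% hepatectomy (PH70), both on postoperative day 3. In a hepatectomy a surgeon cuts away liver lobes, after which the remnant regrows. Both groups were wild-type male C57Bl/6J mice with 3 libraries each, so 6 of the 12 libraries and 2 of the 4 groups of the series make up the comparison. The third group used, PH80, had the same 80% resection without a further label and also holds 3 wild-type male C57Bl/6J libraries of day 3. The fourth group, PH80_G+H, had the 80% resection with G-CSF and HNF4a, and it enters the fit through its spread and has its values in the closing section. The sources used here do not say what HC stands for, nor give a dose, route or timing. PH80_HC and PH70 therefore differ both in the size of the resection and in HC. No label ties a library to an animal of its own, so the p-values reflect library-to-library spread, part of which may be technical. Of 13554 listed genes, 12253 reached a value of 10 in 3 or more of the 6 libraries and were tested. A value is a normalised read count, that is, reads divided by 1 size factor per library, and differences are given on the log2(value + 1) scale.

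After a standard resection, the remaining hepatocytes leave quiescence, divide in near synchrony and keep up secretion of plasma proteins and metabolism while they do so. Larger resections delay this program and can end in liver failure. The hepatocyte's sex-dependent genes, its circadian genes and its early stress genes respond to hormones, feeding and injury, and resident macrophages, lymphocytes and blood cells in the tissue add their own RNA. In bulk tissue, fewer cells of a type and less RNA per cell cannot be told apart.

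The labelled tissue was checked first. Alb, the albumin gene, made up 6.74% to 11.7% of the summed values in the 6 libraries, and the Y-linked gene Eif2s3y had 941 to 1124 normalised reads in PH70 and 758 to 909 in PH80_HC. Recovered reads ranged from about 9720000 in PH70 replicate 3 to about 40750000 in PH80_HC replicate 2. PH80_HC replicates 1 and 3 had summed values of about 29180000 and 30500000, against 21450000 to 24420000 in the other 4 libraries of the comparison. Across the libraries, deviations also followed transcript length, with a slope of 0.18 log2 units per doubling of length in PH70 replicate 3 and -0.23 in PH80_HC replicate 3, the 2 ends among the 6 libraries. The part of these axes in the results was not tested, and the libraries on which each call depends are named with it.

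PH80_HC differed from PH70 in 28 of 12253 genes at an adjusted p of 0.05 (limma, two-sided, Benjamini-Hochberg), 14 higher and 14 lower. That is 0.229% of the genes tested, or 0.114% in each direction. In the same fit PH80_HC differed from PH80 in 109 genes (0.89%), 82 higher (0.669%) and 27 lower (0.22%), and PH80 differed from PH70 in 478 genes (3.9%), 130 higher (1.06%) and 348 lower (2.84%). The comparisons share libraries in pairs, so their counts are not independent. At an unadjusted p of 0.05, 1949 genes (15.9%) separated PH80_HC from PH70, 8.61% higher and 7.3% lower. The median difference over all genes tested was 0.0033.

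All 28 genes had no overlap between the 3 libraries of each group. Genes without overlap made up 7.96% of all tested genes in the higher and 9.1% in the lower direction. Apol11b, Cux2 and Gzmb, all called higher, lay below 10 in every PH70 library. The filter thus set their direction and their lack of overlap. The 28 genes fell into 3 kinds. There were 13 that stay different from the standard resection, called in the same direction in PH80 as well, of which 11 were lower (0.0898% of the genes tested) and 2 higher (0.0163%). Another 6 were new to the arm, called in the same direction both against PH70 and against PH80, with 3 higher and 3 lower (0.0245% each). Apol11b is among those 3 higher genes. The remaining 9, all higher, were called only against PH70 and not between either other pair, so they belong to neither kind. The genes Raet1d, Angptl2, Arhgap26, Apol11b, Themis and Tspan4 fall outside the naming rule and were named after their values were seen.

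**Figure D1:**
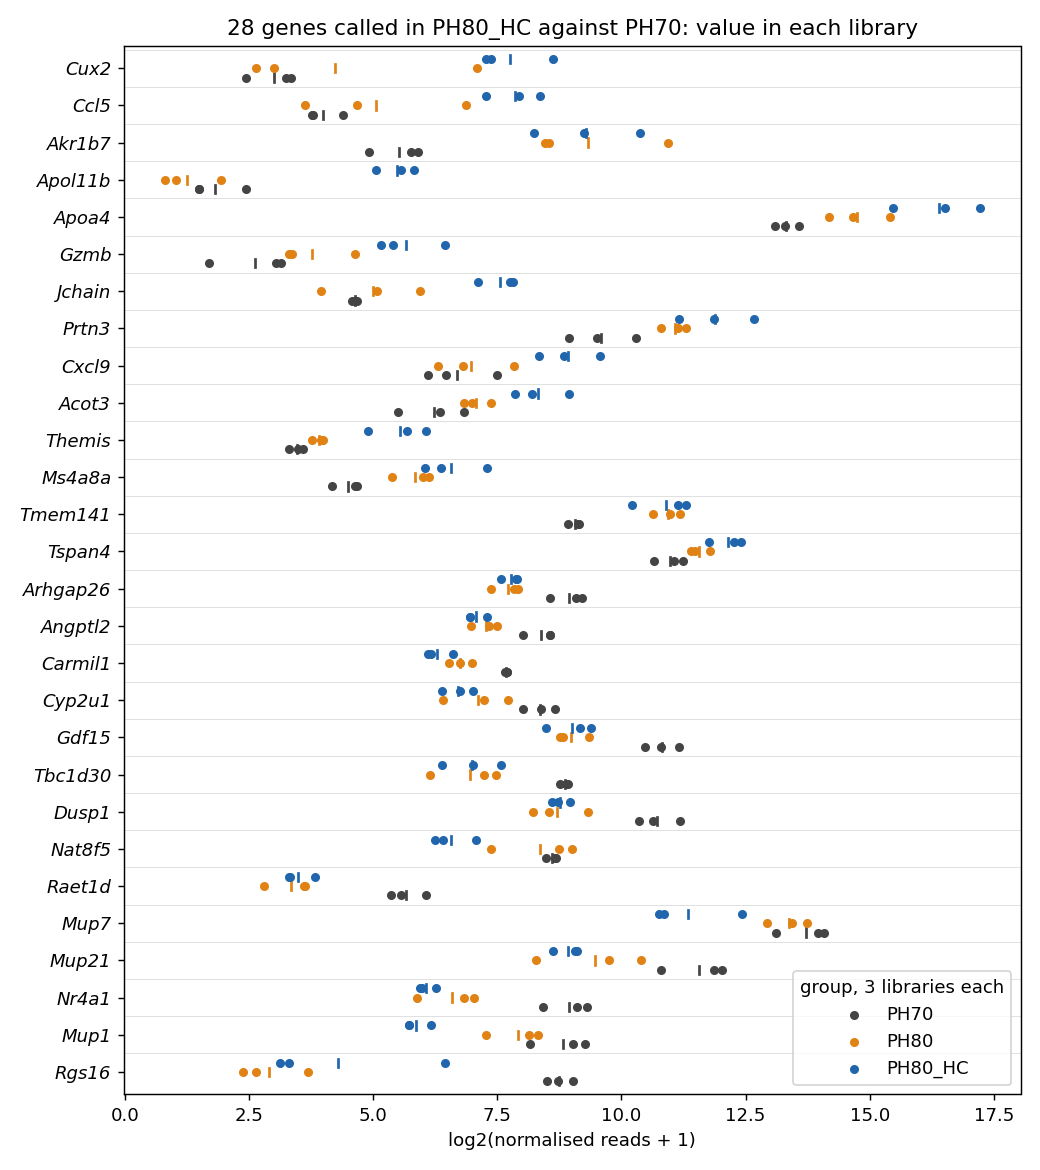
Values of the 28 called genes in each library of PH70, PH80 and PH80_HC on the log2(normalised reads + 1) scale (points, libraries; vertical ticks, group means). PH80_HC lies apart from PH70 in all 28 genes, while PH80 lies near PH80_HC in some (Rgs16, Dusp1, Gdf15) and near PH70 in others (Mup7, Nat8f5, Jchain).

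The count of 28 depended on single libraries. It became 8, 2 and 1 without PH70 replicate 1, 2 or 3, and 6, 28 and 6 without PH80_HC replicate 1, 2 or 3. Without PH80 replicate 1, 2 or 3 it was 32, 54 and 26, and without PH80_G+H replicate 1, 2 or 3 it was 6, 16 and 4, although those libraries enter only through the shared spread. The quasi-likelihood test of edgeR on recovered reads called 4 genes higher (0.0326%) and 10 lower (0.0816%), and DESeq2 called 161 higher (1.31%) and 97 lower (0.792%). With every library set to the same total, 5 genes were higher and 16 lower, beside 14 and 14 in the main fit, and the median of all genes moved to -0.21. None of the 28 genes changed sign in any of the alternatives. Mup1 passed the threshold in each of its 27 alternatives, and Gdf15 in 25, Apoa4 in 24 and Nr4a1 in 22 of theirs, whereas 20 of the 28 genes lost it in 10 or more.

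Of the genes that stay different, Rgs16 had the largest difference. Rgs16, whose protein shortens signals from G protein-coupled receptors by speeding GTP hydrolysis on the alpha subunit, had 517, 362 and 421 normalised reads in PH70. It had 8.91, 86.3 and 7.78 in PH80_HC and 4.22, 12 and 5.21 in PH80. All 6 libraries of PH80_HC and PH80 lay below those of PH70, and PH80_HC replicate 2 was the highest of the 6. Rgs16 (chr1:153740349-153745468, plus strand, GRCm38) differed from PH70 by -4.45 log2 units in PH80_HC (SE 0.80, n = 3 against 3, limma adjusted p = 0.0423) and by -5.84 in PH80 (adjusted p = 0.00364). The difference between both 80% groups was 1.39 with a 95% interval from -0.32 to 3.11. The call was lost without PH80_HC replicate 1 or 3, without any single PH70 library, and without PH80 replicate 3 or PH80_G+H replicate 1 or 3, with an adjusted p of up to 0.163.

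The early response genes Nr4a1 and Dusp1 belong to the same kind. Nr4a1, an orphan nuclear receptor transcribed within minutes of many stimuli, had 340, 634 and 551 normalised reads in PH70 and 76.1, 62.6 and 61.0 in PH80_HC. PH80 lay between 58.3 and 130, below every PH70 library and overlapping PH80_HC. The difference from PH70 was -2.87 log2 units in PH80_HC (SE 0.41, adjusted p = 0.0199) and -2.36 in PH80 (adjusted p = 0.00897). Dusp1, a phosphatase that switches off MAP kinases, had 1304, 2318 and 1590 in PH70 against 500, 424 and 387 in PH80_HC and 296 to 644 in PH80. Its differences were -1.96 (SE 0.29, adjusted p = 0.0263) and -2.02 (adjusted p = 0.00458). Between both 80% groups the interval ran from -1.39 to 0.36 for Nr4a1 and from -0.57 to 0.70 for Dusp1. The Dusp1 model overlaps 2 unnamed models on the same strand and Ergic1 on the other, which had 1822 to 2036 in PH70 and 1349 to 1950 in PH80_HC, so its count is uncertain. Both calls were lost without PH70 replicate 2 or 3 and without PH80_HC replicate 1 or 3, and that of Dusp1 also without PH80_G+H replicate 3, with an adjusted p of up to 0.120 for Nr4a1 and 0.163 for Dusp1.

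Promoter windows of these 2 genes are shown because the cyclic AMP response element is a known input to both. The windows are RefSeq's (GRCm38.p6), from 250 bases before to 50 after the start, and capitals mark its core TGACG on either strand (CGTCA on the printed strand when it lies on the other). The Nr4a1 window is chr15:101266596-101266895 on the plus strand and the Dusp1 window is chr17:26508423-26508722 on the minus strand.
Nr4a1: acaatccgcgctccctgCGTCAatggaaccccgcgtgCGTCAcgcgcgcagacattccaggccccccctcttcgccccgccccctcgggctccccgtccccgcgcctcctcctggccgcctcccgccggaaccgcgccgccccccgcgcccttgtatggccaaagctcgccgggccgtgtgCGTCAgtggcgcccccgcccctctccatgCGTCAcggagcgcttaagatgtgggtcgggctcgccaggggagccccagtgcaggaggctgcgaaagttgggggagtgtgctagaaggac
Dusp1: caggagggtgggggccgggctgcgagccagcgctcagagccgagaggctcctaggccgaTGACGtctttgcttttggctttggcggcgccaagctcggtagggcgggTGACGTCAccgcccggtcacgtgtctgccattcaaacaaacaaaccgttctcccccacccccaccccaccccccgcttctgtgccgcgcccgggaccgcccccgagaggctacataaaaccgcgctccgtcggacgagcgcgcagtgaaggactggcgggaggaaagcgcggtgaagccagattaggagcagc
Nr4a1 holds 4 such cores and Dusp1 holds 3, a pair of which overlap as a palindrome. The core was in 7 of the 22 called genes with a promoter entry and in 34.46% of the tested genes with one. A gene counted when any of its windows held the core. The called genes thus lie near the background. The E-box CACGTG, bound by clock factors, was in 3 of the 22 (Dusp1, Tspan4 and Gdf15) and in 11.59% of those tested genes. These matches describe the letters only.

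The other genes that stay low have roles in stress signals, the cytoskeleton and metabolism. Gdf15, a stress-induced cytokine of the TGF-beta family, had 1789, 1426 and 2272 in PH70, 667, 574 and 358 in PH80_HC and 434 to 647 in PH80. Its difference was -1.80 log2 units in PH80_HC (SE 0.25, adjusted p = 0.0185) and -1.83 in PH80 (adjusted p = 0.0032), and among its alternatives the fits without PH70 replicate 3 lost the call (adjusted p of up to 0.0682 with that library alone left out). Carmil1, a regulator of actin capping, had 205, 201 and 207 in PH70 and 67.9 to 96.4 in PH80_HC, and it fell by 1.39 (adjusted p = 0.0199). Tbc1d30, of a family of GTPase-activating proteins for Rab proteins, had 433 to 483 in PH70 and 83.0 to 189 in PH80_HC, and it fell by 1.86 (adjusted p = 0.0423). Cyp2u1, a cytochrome P450 that acts on long-chain fatty acids, had 259 to 405 and 83.0 to 129, and it fell by 1.63 (adjusted p = 0.0488). Angptl2, a secreted angiopoietin-like protein, had 258 to 377 and 122 to 156, and it fell by 1.31 (adjusted p = 0.0377). The Angptl2 model overlaps Ralgps1 on the other strand, which had 119 to 127 in PH70 and 49.3 to 137 in PH80_HC, so its count is uncertain. Raet1d, a ligand of the killer-cell receptor NKG2D, had 40.1 to 65.8 and 8.91 to 13.2, and it fell by 2.18 (adjusted p = 0.0423). The Raet1d model overlaps that of Raet1e on the same strand, so its count is uncertain. Arhgap26 had 377 to 593 and 189 to 236, and it fell by 1.17 (adjusted p = 0.0423). The calls of Cyp2u1, Raet1d and Arhgap26 were lost without any single library of PH70, PH80_HC or PH80_G+H, with an adjusted p of up to 0.199, 0.225 and 0.208, and that of Cyp2u1 also without PH80 replicate 1. Tbc1d30 lost its call without any single library of PH70 or PH80_G+H and without PH80_HC replicate 1 or 3 (up to 0.163), and Carmil1 without any PH70 library, PH80_HC replicate 3 or PH80_G+H replicate 3 (up to 0.111). Angptl2 lost it without replicate 2 or 3 of PH70 or replicate 1 or 3 of PH80_HC or PH80_G+H (up to 0.163).

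Mup21, a major urinary protein gene, completed the list of genes that stay low, with 3724, 4179 and 1777 in PH70, 548, 392 and 532 in PH80_HC and 308 to 1342 in PH80. Its difference was -2.64 (SE 0.44, adjusted p = 0.0405) against PH70 in PH80_HC and -2.09 (adjusted p = 0.0209) in PH80. The 2 genes that stay high were Akr1b7 and Tmem141. Akr1b7, an aldo-keto reductase, had 58.7, 29.2 and 53.5 in PH70, 1323, 611 and 301 in PH80_HC and 354 to 1974 in PH80. It rose by 3.76 log2 units in PH80_HC (SE 0.60, adjusted p = 0.0377) and by 3.79 in PH80 (adjusted p = 0.00646). Tmem141, which encodes a transmembrane protein, had 568, 483 and 560 in PH70 against 2254, 1194 and 2536 in PH80_HC and 1602 to 2311 in PH80. It rose by 1.82 (adjusted p = 0.0405) and by 1.87 (adjusted p = 0.00698). For Akr1b7 and Tmem141 the 95% intervals of the difference between both 80% groups were -1.33 to 1.27 and -0.70 to 0.61. The calls of Mup21, Akr1b7 and Tmem141 were each lost without any single PH70 library and without PH80_G+H replicate 1 or 3, with an adjusted p of up to 0.163. They were also lost without any PH80_HC library for Mup21, replicate 1 or 2 for Akr1b7 and replicate 1 or 3 for Tmem141.

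**Figure D2:**
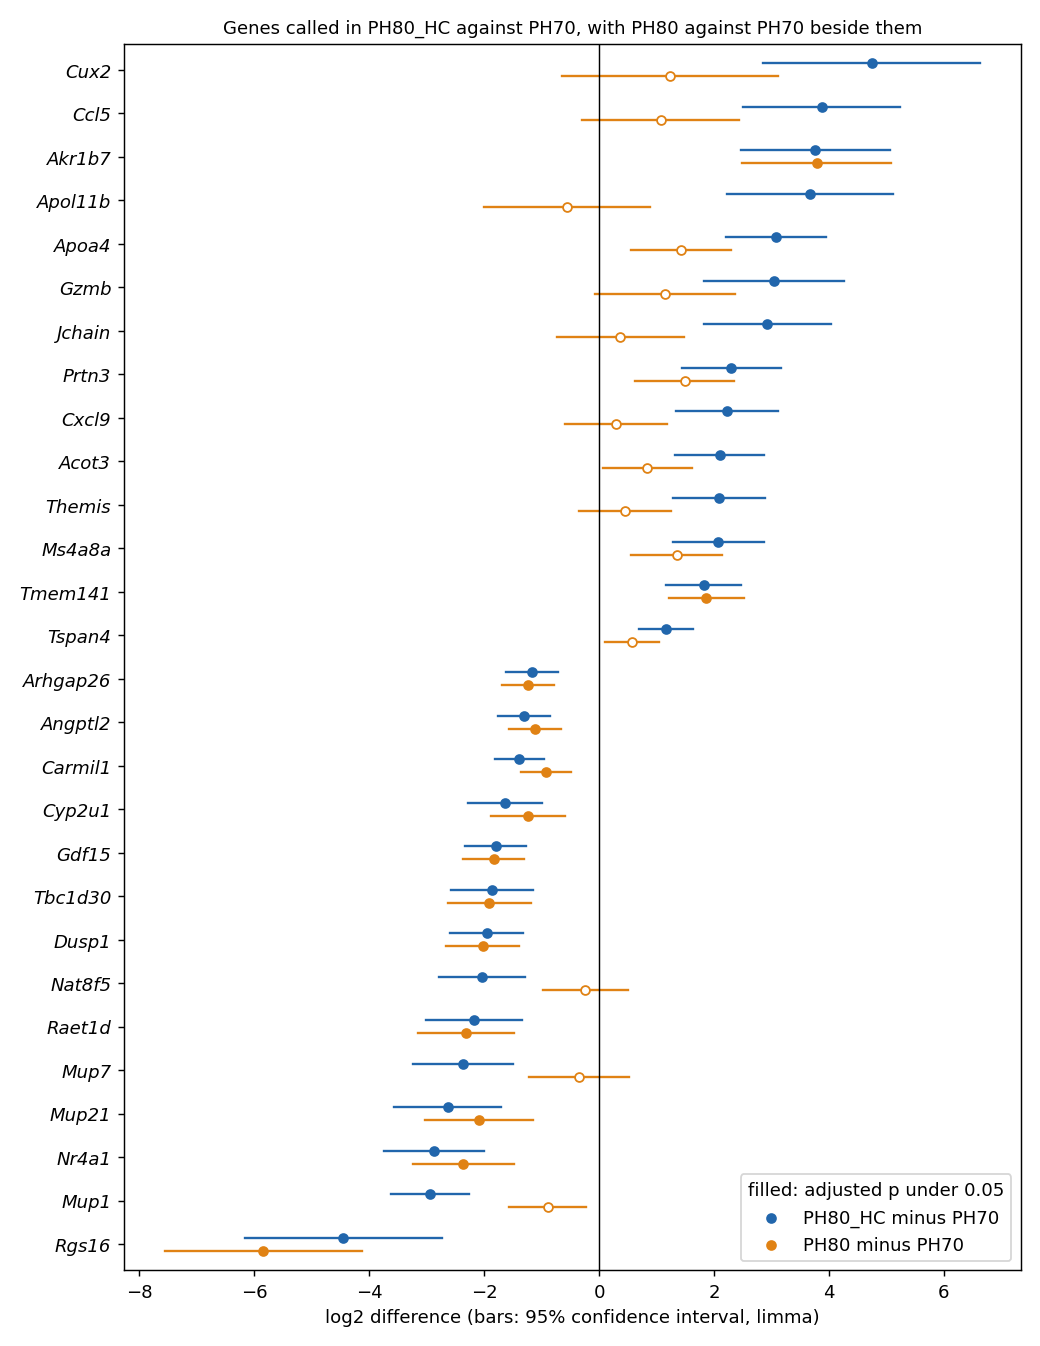
Log2 differences from PH70 with 95% confidence intervals for PH80_HC (blue) and PH80 (orange) in the 28 called genes (filled points, adjusted p under 0.05 in limma). For the 13 genes that stay different both intervals lie on the same side of 0, and for Mup7 (-2.37 and -0.35), Nat8f5 (-2.03 and -0.24) and Apol11b (3.67 and -0.56) the points lie apart.

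New to the arm, and lower than after either other resection, were Mup1, Mup7 and Nat8f5. The major urinary proteins are small carriers of pheromones that the male mouse liver secretes under pulsed growth hormone. Mup1 (chr4:60498012-60501960, minus strand) had 616, 517 and 285 normalised reads in PH70, 71.3, 51.6 and 51.9 in PH80_HC, and 321, 155 and 282 in PH80. Its highest PH80_HC library lay below the lowest library of both other groups. The Mup1 difference was -2.94 log2 units against PH70 (SE 0.32, adjusted p = 0.00336) and -2.05 against PH80 (adjusted p = 0.0161), and its adjusted p against PH70 ranged up to 0.0486 over the 27 alternatives. Mup7 had 15866, 17296 and 8920 in PH70, 5544, 1729 and 1846 in PH80_HC, and 11098, 7857 and 13655 in PH80. The Mup7 difference was -2.37 against PH70 (SE 0.41, adjusted p = 0.0423) and -2.02 against PH80 (adjusted p = 0.0348). Nat8f5, of a family of N-acetyltransferases, had 404, 409 and 359 in PH70, 133, 75.3 and 84.3 in PH80_HC, and 426, 164 and 512 in PH80. The Nat8f5 difference was -2.03 against PH70 (SE 0.35, adjusted p = 0.0423) and -1.79 against PH80 (adjusted p = 0.0309). Its model overlaps Nat8f6, which had at most 6.05 normalised reads in the 6 libraries. Nat8f5 lost its call against PH70 without any single library of PH70 or PH80_HC, and Mup7 without any single PH70 library or PH80_HC replicate 2 or 3. Both also lost it without PH80_G+H replicate 1 or 3, and Nat8f5 without replicate 2, with an adjusted p of up to 0.184 for Mup7 and 0.163 for Nat8f5.

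Major urinary protein genes are near-identical copies, and counting can split or share their reads, so single members are uncertain. Of 11 tested Mup genes, 11 had a lower mean in PH80_HC than in PH70, and Mup1, Mup7 and Mup21 were called. Of the 11, 8 were lower without overlap, against 9.1% of all genes. With every library at the same total, 11 of 11 were also lower. The median Mup difference was -1.60 in PH80_HC and -0.35 in PH80, against a median near 0 over all genes. In PH80, 10 of the 11 also had a lower mean than in PH70, and 1 was called. The summed Mup value was 276427 to 312390 in PH70 and 84961 to 209244 in PH80_HC, without overlap. This family was singled out after its values were seen.

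Higher than after either other resection were Cxcl9, Jchain and Apol11b. Cxcl9, a chemokine that interferon gamma induces and that attracts T cells, had 67.8, 87.7 and 178 in PH70, 324, 754 and 458 in PH80_HC and 226, 111 and 78.1 in PH80. It rose by 2.23 log2 units against PH70 (SE 0.41, adjusted p = 0.0488) and by 1.94 against PH80 (adjusted p = 0.0459). Jchain, which joins IgM and IgA into polymers and is made by plasma cells, had 23.0, 23.8 and 24.5 in PH70, 137, 224 and 214 in PH80_HC, and 60.5, 32.9 and 14.6 in PH80. The Jchain differences were 2.93 (SE 0.51, adjusted p = 0.0423) and 2.56 (adjusted p = 0.0348). Apol11b, of the apolipoprotein L family, rested on 6 reads in all of PH70, with values of 1.82, 1.83 and 4.46, against 32.4, 46.3 and 55.8 in PH80_HC. It rose by 3.67 (SE 0.67, adjusted p = 0.0488) and against PH80 by 4.23 (adjusted p = 0.0163). All 3 calls against PH70 were lost without any single library of PH70 or PH80_HC, and with every library at the same total. They were also lost without PH80_G+H replicate 1 or 3, those of Cxcl9 and Apol11b without replicate 2 as well, and that of Apol11b without PH80 replicate 3. The adjusted p reached 0.225 for Cxcl9, 0.163 for Jchain and 0.191 for Apol11b with 1 library left out.

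The Apol11b promoter is shown because among the genes new to the arm with a promoter entry it alone holds the palindrome of STAT sites, through which interferon gamma acts. It is the RefSeq window chr15:77643237-77643536 on the minus strand (GRCm38.p6), and capitals mark TTCNNNGAA, whose letters read the same on both strands.
Apol11b: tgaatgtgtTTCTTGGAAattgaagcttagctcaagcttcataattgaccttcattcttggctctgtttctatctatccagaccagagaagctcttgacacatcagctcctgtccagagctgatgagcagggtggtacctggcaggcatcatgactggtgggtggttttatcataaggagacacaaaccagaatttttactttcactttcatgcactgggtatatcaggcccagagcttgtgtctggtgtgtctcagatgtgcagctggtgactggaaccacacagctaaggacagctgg
The site starts 241 bases before the start of the gene. It was in 2 of the 22 called genes with a promoter entry (Apol11b and Gzmb) and in 8.5% of the tested genes with one. The called genes thus again lie near the background.

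The 9 genes called only against PH70 all had a mean in PH80 between the means of the other groups on the log2 scale. Cux2, a homeobox transcription factor that is higher in female than in male mouse liver, had 8.47, 9.14 and 4.46 in PH70, 154, 391 and 165 in PH80_HC, and 7.03, 135 and 5.21 in PH80. A single PH80 library thus came near the lowest library of the arm without reaching it. The Cux2 difference was 4.74 log2 units (SE 0.88, adjusted p = 0.0488), with 21 reads in all of PH70, and DESeq2 gave it no adjusted p. Apoa4, an apolipoprotein of triglyceride-rich particles, had 8759, 10034 and 12140 in PH70, 93540, 45246 and 152215 in PH80_HC, and 18553, 43344 and 25907 in PH80. It rose by 3.08 (SE 0.40, adjusted p = 0.0177) and differed from PH80 by 1.65 (95% interval 0.78 to 2.52, adjusted p = 0.0809). Acot3, a peroxisomal acyl-CoA thioesterase, had 44.6 to 113 in PH70 and 230 to 490 in PH80_HC, and it rose by 2.10 (adjusted p = 0.0423). The Acot3 model overlaps an unnamed one on the same strand. Prtn3, a serine protease of neutrophil granules, had 733, 1256 and 495 in PH70 and 3709, 2296 and 6482 in PH80_HC, and it rose by 2.31 (adjusted p = 0.0423). Other granule genes were far lower, with Elane at 6.69 to 7.87 in PH70 and 20.0 to 55.8 in PH80_HC and Mpo listed at 0 in all PH70 libraries and at 5.79 to 29.8 in PH80_HC. Ms4a8a had 16.9 to 24.5 and 64.8 to 156, and it rose by 2.07 (adjusted p = 0.0423). Tspan4, a tetraspanin membrane protein, had 1614 to 2409 and 3485 to 5456, and it rose by 1.17 (adjusted p = 0.0488). The Tspan4 model overlaps Chid1 on the other strand, which had 1166 to 1612 in PH70 and 976 to 1574 in PH80_HC, so its count is uncertain. Apoa4 lost its call without PH70 replicate 2 or 3 (adjusted p of up to 0.0899). Cux2 and Ms4a8a lost theirs without any single library of PH70, PH80_HC or PH80_G+H (up to 0.186 and 0.163), and Acot3 without PH70 replicate 2 or 3 or any library of PH80_HC or PH80_G+H (up to 0.163). Prtn3 and Tspan4 lost theirs without any PH70 library and without replicate 1 or 3 of PH80_HC or PH80_G+H (up to 0.156 and 0.200), and Tspan4 also without PH80_G+H replicate 2 or PH80 replicate 1 or 3.

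Genes of T and cytotoxic cells supplied 3 of these 9. Ccl5, a chemokine of T and natural killer cells, had 12.7, 12.8 and 20.1 in PH70, 155, 245 and 328 in PH80_HC, and 115, 24.7 and 11.5 in PH80. It rose by 3.88 log2 units (SE 0.63, adjusted p = 0.0405). Gzmb, a protease that cytotoxic cells inject into targets, had 7.87, 7.31 and 2.23 in PH70 and 34.8, 86.3 and 41.5 in PH80_HC, and it rose by 3.04 (adjusted p = 0.0488) on 18 reads in all of PH70. Themis, a signalling protein of T cells, had 8.92 to 11 and 29.0 to 65.6, and it rose by 2.09 (adjusted p = 0.0423) on 27 reads in PH70. The calls of Ccl5, Gzmb and Themis were lost without any single PH70 library, without PH80_HC replicate 1 or 3 and without PH80_G+H replicate 1 or 3, with an adjusted p of up to 0.163, 0.174 and 0.163. Those of Ccl5 and Gzmb were also lost without PH80_HC replicate 2, and those of Gzmb and Themis without PH80_G+H replicate 2 or PH80 replicate 3. Of 17 tested genes of the lymphocyte marker list, 3 were called higher (Ccl5, Jchain and Gzmb), against 0.114% of all genes. In the higher direction 11 had an unadjusted p under 0.05, against 8.61% of all genes, and 11 had no overlap, against 7.96%. Members such as Gzmb lay below 10 in every PH70 library, so they were tested only through PH80_HC and could only be higher. The counts and the median of the list rest partly on such members. The list median was 2.45 log2 units, 0.42 in PH80 against PH70. The summed list value was 245 to 297 in PH70 and 620 to 1509 in PH80_HC. Of the 20 entries of the list, 18 were among the listed genes, and none of those was at 0 in all 6 libraries. By library the mean of the list was 0.94, 2.32 and 2.31 log2 units above PH70 in PH80_HC replicates 1, 2 and 3, and 1.32 in PH80 replicate 1.

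The list holds genes of T, cytotoxic and B cells, whose values are given side by side without a test of the difference between them. Cd8b1, a chain of the CD8 coreceptor, had 5.45, 1.83 and 4.46 in PH70 and 29.2, 67.4 and 66.2 in PH80_HC, and its difference of 3.48 did not pass (adjusted p = 0.0825). The difference was 0.10 for Cd79a, a B cell gene, and -0.56 for Cd4, with adjusted p of 0.941 and 0.454. Cd79a and Cd4 were named after their values were seen.

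Other blood and immune lists had few or no calls. Over all genes, 8.61% were higher and 7.3% lower at an unadjusted p under 0.05. DESeq2 called 1.31% higher and 0.792% lower. The macrophage list had 0 of 20 genes called in limma, 0 in edgeR and 6 in DESeq2, with 11 at an unadjusted p under 0.05, a median of 0.78 and a summed value of 18020 to 28239 in PH70 and 34301 to 53958 in PH80_HC. Of its genes, 14 had a higher and 6 a lower mean. Marco, a scavenger receptor of macrophages, had 1288, 1197 and 1445 in PH70, 5362, 4639 and 5616 in PH80_HC, and 2382, 9805 and 1878 in PH80, with an adjusted p of 0.105. The neutrophil list had 0 of 10 genes called by limma, 0 by edgeR and 1 by DESeq2, 4 at an unadjusted p under 0.05 and a median of 1.45, with Ly6g, the defining marker, listed at 0 to 2.59 in the 6 libraries. Its summed value was 2832 to 10788 in PH70 and 5187 to 54445 in PH80_HC. Elane, a member, lay below 10 in every PH70 library, so it was tested only through PH80_HC and could only be higher. Of 6 erythroid genes, 0 were called by limma or edgeR and 3 by DESeq2, 3 had an unadjusted p under 0.05 and the median was 1.01. Setting the libraries to equal totals moved that median to -0.00026. Slc4a1, the anion exchanger of red cells, had 4.46 to 5.48 in PH70 and 32.4 to 53.2 in PH80_HC (adjusted p = 0.0745). It lay below 10 in every PH70 library, so it too was tested only through PH80_HC. Elane, Mpo, Ly6g, Marco and Slc4a1 were named after their values were seen.

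Interferon genes went both ways. Of 25 tested, Cxcl9 alone was called, 4 had an unadjusted p under 0.05 in the higher and 3 in the lower direction, and the median was -0.02. Over all genes, 8.61% were higher and 7.3% lower at that p. Tgtp1, a GTPase induced by interferon gamma, had 26.6, 42.0 and 20.1 in PH70, 134, 298 and 58.4 in PH80_HC and 12.7 to 21.9 in PH80. Its difference of 2.19 against PH70 did not pass (adjusted p = 0.0899), and that of 2.95 against PH80 did (adjusted p = 0.0163). Igtp, a GTPase of the same family, had 421 to 614 in PH70, 857 to 1468 in PH80_HC and 280 to 463 in PH80, with adjusted p of 0.106 and 0.0161. Oasl2, a gene of the antiviral type I interferon response, had 152, 201 and 201 in PH70 and 86.7, 122 and 85.6 in PH80_HC (difference -0.91, adjusted p = 0.112). The antigen presentation list had 0 of 16 genes called against PH70 by limma, 0 by edgeR and 1 by DESeq2, with 9 at an unadjusted p under 0.05 and a median of 0.75 (PH80, -0.45).

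**Figure D3:**
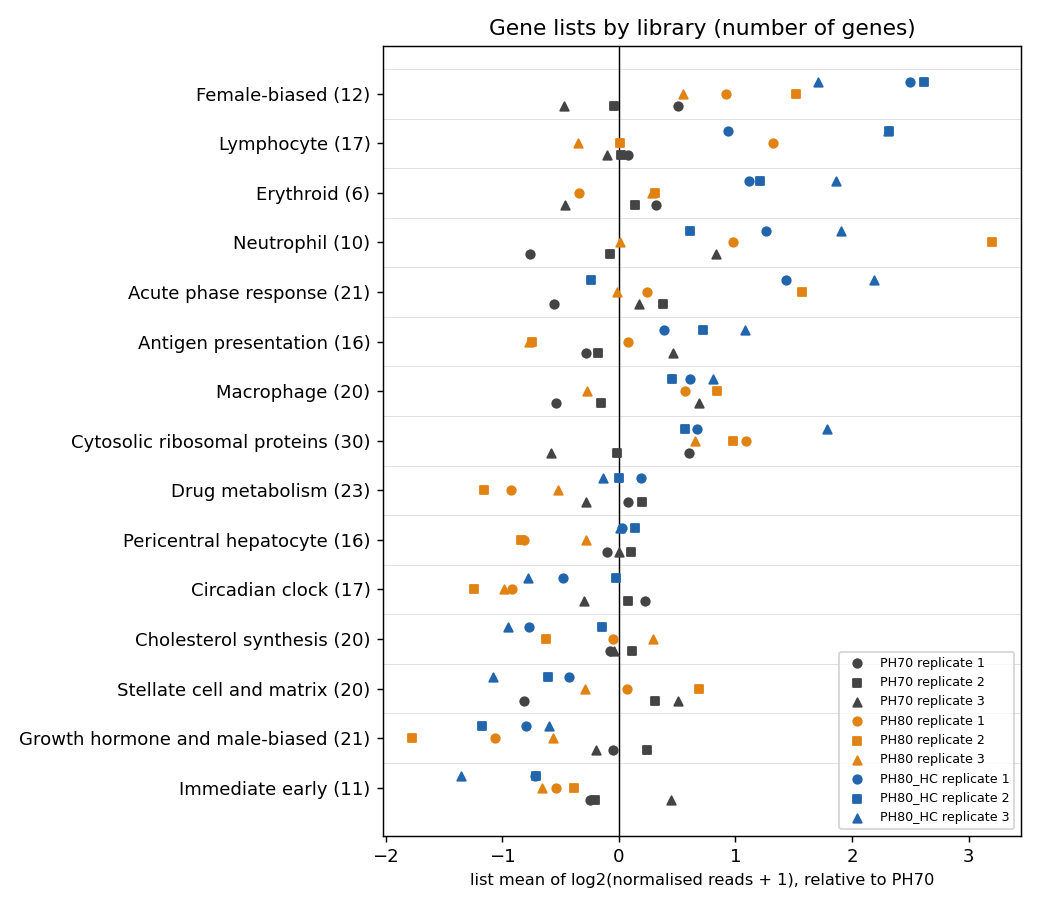
Mean of each gene list in each library, relative to the mean of PH70, on the log2(normalised reads + 1) scale (color, group; symbol, replicate). The female-biased and lymphocyte lists lie above PH70 in all 3 PH80_HC libraries, the immediate early list lies below it (-0.72, -0.71 and -1.35), and the acute phase list lies high in PH80_HC replicates 1 and 3 (1.44 and 2.19) but not in replicate 2 (-0.24).

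Sex-dependent hepatocyte genes had called members in both lists. The female-biased list had 3 of 12 tested genes called higher (Akr1b7, Acot3 and Cux2), against 0.114% of all genes. In the higher direction 10 had an unadjusted p under 0.05 (8.61% of all genes) and 10 had no overlap (7.96%). All 12 had a higher mean. Cux2 lay below 10 in every PH70 library, so it was tested only through PH80_HC and could only be higher. The counts and the median of the list rest partly on it. Its median was 2.17 log2 units in PH80_HC and 0.82 in PH80. By library the list mean was 2.50, 2.62 and 1.71 in PH80_HC and -0.47 to 0.51 in PH70. The list holds Prom1, Sult1e1 and Akr1b7, which earlier results of these data had shown to be high in PH80, so it is not independent evidence of its direction. Of the 9 other genes, 2 were called and 7 had no overlap, with a median of 1.45 in PH80_HC and 0.03 in PH80 against PH70. These 9 include Cux2 and were also chosen with earlier results of these data known, so they are not independent evidence either. Prom1, a membrane glycoprotein of progenitor cells and bile duct epithelium, had 10.9, 16.5 and 35.7 in PH70, 405, 106 and 59.7 in PH80_HC, and 204 to 388 in PH80. Its difference of 2.81 did not pass (adjusted p = 0.110).

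The growth hormone and male-biased list had 2 of 21 genes called lower (Mup1 and Mup7), 8 at an unadjusted p under 0.05 in the lower direction, against 7.3% of all genes, and a median of -0.76 (PH80, -1.06). Elovl3, a fatty acid elongase with higher levels in males, had 1957, 3106 and 1333 in PH70, 412, 241 and 488 in PH80_HC and 313 to 2034 in PH80. The Elovl3 difference of -2.46 did not pass (adjusted p = 0.0825). Ugt2b38, a glucuronosyltransferase, had 182 to 310 in PH70 and at most 57.1 in PH80_HC (difference -3.18, adjusted p = 0.112). Cish and Socs2, feedback inhibitors induced by growth hormone through STAT5, went the other way without passing. Cish had 110, 234 and 468 in PH70 and 683, 659 and 1057 in PH80_HC (difference 1.76, adjusted p = 0.154). Socs2 had 172, 300 and 528 in PH70 and 351, 709 and 1162 in PH80_HC (1.13, adjusted p = 0.263), and against PH80 its difference of 2.19 passed (adjusted p = 0.0348). Both were named after their values were seen.

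The immediate early list, to which Dusp1 belongs, had 1 of 11 genes called lower and 7 at an unadjusted p under 0.05 in the lower direction, with a median of -1.27 (PH80, -0.75). Over all genes, 0.114% were called lower and 7.3% were lower at that p. Zfp36, which destabilises cytokine mRNAs, had 4469, 3521 and 3804 in PH70, 1660, 2268 and 931 in PH80_HC and 1552 to 1951 in PH80. Its difference was -1.36 in PH80_HC (adjusted p = 0.0647) and -1.18 in PH80 (adjusted p = 0.0288). Jun and Fos, which pair as the transcription factor AP-1, differed by -1.34 and -1.67 without passing (adjusted p = 0.106 and 0.145). Fos had 284, 271 and 595 in PH70 and 103, 198 and 68.8 in PH80_HC. The list median was -0.52 with replicates 3 of both groups left out. The p53 target list had 1 of 16 genes called, Gdf15, and a median of 0.03. Its next members by adjusted p, Phlda3 and Bax, had differences of 0.98 and 0.72 (adjusted p = 0.173 and 0.205), opposite in sign to Gdf15.

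Hepatocyte genes fixed for naming showed where PH80_HC came close to PH70 and where PH80 did not. Cyp2e1, a drug-metabolising enzyme of hepatocytes near the central vein, had 57958, 76356 and 42125 in PH70, 69406, 60255 and 53074 in PH80_HC, and 10157, 10802 and 23914 in PH80. Its difference from PH70 was 0.08 in PH80_HC (95% interval -0.65 to 0.82), whereas it fell by 2.05 in PH80 (adjusted p = 0.0077), and both 80% groups differed by 2.13 (adjusted p = 0.0163). The pericentral list had 0 of 16 genes called against PH70 in PH80_HC by limma (0 by edgeR, 1 by DESeq2 and 1 at an unadjusted p under 0.05) and 4 lower in PH80, with medians of 0.09 and -0.68. The drug metabolism list had 0 of 23 called by limma in PH80_HC (0 by edgeR, 2 by DESeq2 and 6 at an unadjusted p under 0.05) and 8 lower in PH80, with medians of 0.09 and -0.76. Over all genes, 15.9% had such an unadjusted p in PH80_HC, and 2.84% were called lower in PH80. Dbp, a clock-controlled transcription factor, had 2113, 1340 and 671 in PH70, 488, 977 and 562 in PH80_HC, and 97.0, 50.1 and 129 in PH80. The Dbp difference from PH70 was -0.94 in PH80_HC (interval -1.81 to -0.07, adjusted p = 0.293) and -3.84 in PH80 (adjusted p = 7.16e-04), and both 80% groups differed by 2.90 (adjusted p = 0.0130). Upp2, a uridine phosphorylase of the liver, followed the same order with differences of -0.90 (adjusted p = 0.345) and -3.56 (adjusted p = 0.00257).

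Nr1d1, the clock repressor REV-ERB alpha, lay between the groups, with 4027, 3023 and 2955 in PH70, 1229, 1249 and 756 in PH80_HC, and 173, 369 and 692 in PH80. Its 3 groups did not overlap, and its difference from PH70 was -1.65 in PH80_HC (interval -2.46 to -0.84, adjusted p = 0.106) and -3.22 in PH80 (adjusted p = 0.00135). Cyp8b1, the sterol 12-alpha-hydroxylase that sets bile acid composition, had 5987, 3947 and 4344 in PH70, 280, 1402 and 476 in PH80_HC, and 37.4 to 711 in PH80. Its difference of -3.03 (interval -4.89 to -1.18) did not pass in PH80_HC (adjusted p = 0.179), and that of -4.37 passed in PH80 (adjusted p = 0.0161). Cyp7a1, whose enzyme limits the rate of bile acid synthesis, had 2213, 1859 and 1356 in PH70 and 129, 1410 and 288 in PH80_HC (-2.24, adjusted p = 0.275).

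Mybl1, a transcription factor of the MYB family, had 90.2, 87.7 and 176 in PH70, 306, 237 and 145 in PH80_HC, and 620, 788 and 723 in PH80. The difference from PH70 was 0.97 in PH80_HC (interval 0.33 to 1.60, adjusted p = 0.195), and PH80_HC was lower than PH80 by a called -1.68 (adjusted p = 0.0237). Afp, the fetal albumin homolog, had 115, 101 and 118 in PH70, 380, 377 and 68.8 in PH80_HC, and 442 to 467 in PH80. PH80_HC replicate 3 lay below all PH70 libraries, and the Afp difference was 0.95 (interval -0.08 to 1.97). Mki67 and Cdk1, genes of dividing cells, differed from PH70 by 0.21 (interval -0.49 to 0.91) and 0.32 (-0.26 to 0.91), and in PH80 Cdk1 rose by 1.19 (adjusted p = 0.0308). The mitosis list had 0 of 29 genes called by limma, edgeR or DESeq2 and 0 at an unadjusted p under 0.05 in PH80_HC, with a median of -0.01 (PH80, 0.67) and library means of -0.64, 0.32 and 0.29.

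Single markers of hepatocyte identity, vessels and neutrophils did not pass either, and their differences from PH70 are given with 95% intervals. The differences were 0.08 (-0.42 to 0.58) for Hnf4a, the hepatocyte nuclear receptor, and -0.04 (-1.66 to 1.58) for Alb. They were -0.28 (-0.93 to 0.37) for Vegfa, the endothelial growth factor, and -0.04 (-0.53 to 0.45) for Stab2, a scavenger receptor of sinusoidal endothelium. Pecam1, an endothelial adhesion molecule, gave -0.37 (-0.83 to 0.09) and Csf3r, the receptor of G-CSF, gave 0.43 (-0.82 to 1.68). Alb had 2.32e+06 to 2.58e+06 normalised reads in PH70 and 2.06e+06 to 3.19e+06 in PH80_HC. The fit draws each gene's spread toward an intensity trend, so the Alb interval is not that of its own values alone. In the sinusoidal endothelial list 15 of 18 genes had a lower mean (median -0.37, PH80 -0.40). Of these, 7 had an unadjusted p under 0.05, against 7.3% of all genes in that direction. The pan-endothelial list had 15 of 18 lower, 2 of them at that p (median -0.35, PH80 -0.23). The angiogenic signalling list had 15 of 19 lower, 6 of them at that p (median -0.33, PH80 -0.26). Limma and edgeR called 0 genes in these lists, and DESeq2 called 1, 0 and 2. By library the sinusoidal mean was -0.72, -0.26 and 0.05 in PH80_HC and -0.17 to 0.13 in PH70. The pan-endothelial mean was -0.51, -0.20 and 0.05 against -0.16 to 0.08. PH80_HC replicate 3 thus lay within PH70 in both lists. The angiogenic mean was -0.67, -0.23 and -0.25 against -0.18 to 0.14.

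**Figure D4:**
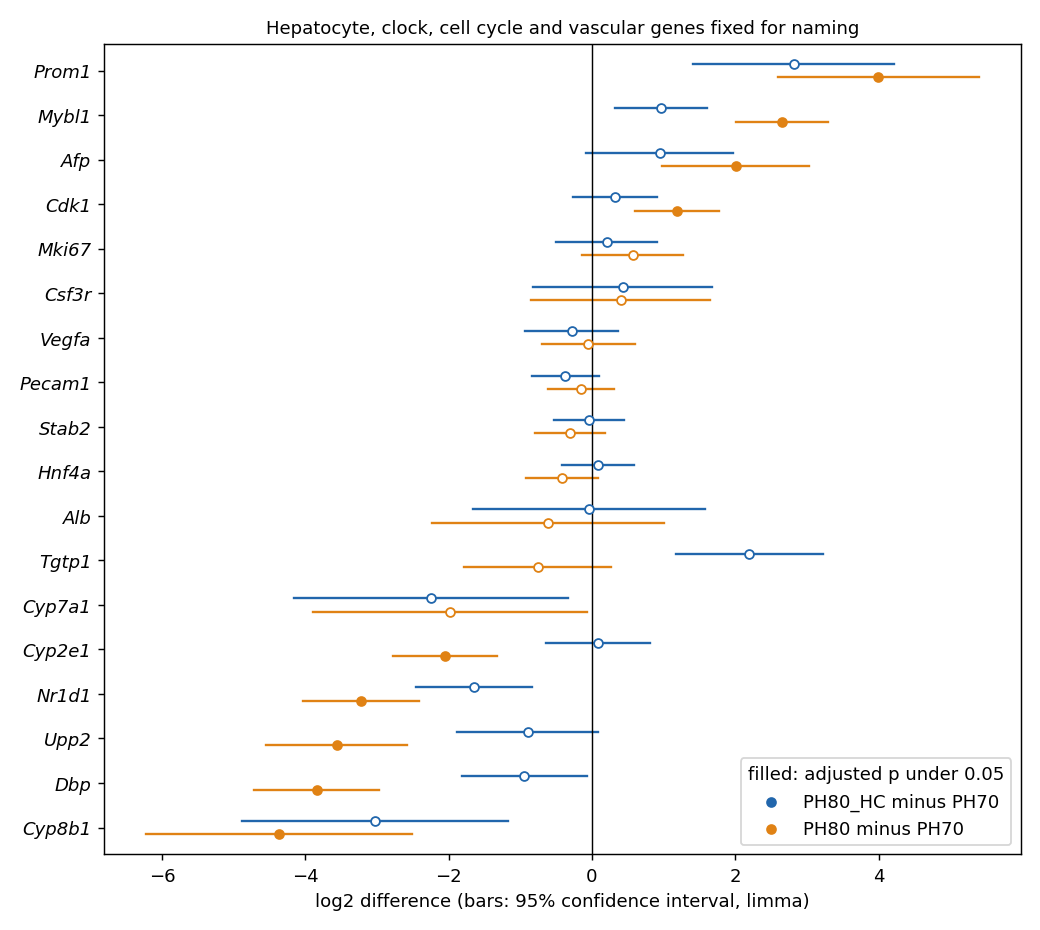
Log2 differences from PH70 with 95% confidence intervals for PH80_HC (blue) and PH80 (orange) in genes fixed for naming (filled points, adjusted p under 0.05 in limma). Cyp2e1, Dbp, Upp2 and Nr1d1 lie nearer to 0 in PH80_HC (0.08, -0.94, -0.90 and -1.65) than in PH80 (-2.05, -3.84, -3.56 and -3.22).

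The acute phase and cholesterol synthesis lists gave differences without calls in limma. Over all genes, 8.61% were higher and 7.3% lower at an unadjusted p under 0.05. DESeq2 called 1.31% of all genes higher and 0.792% lower. The acute phase list had 0 of 21 genes called (0 by edgeR, 3 by DESeq2 and 6 at an unadjusted p under 0.05), 20 with a higher mean and a median of 1.12 (PH80, 0.35). Its library means were 1.44, -0.24 and 2.19, so PH80_HC replicate 2 stood with PH70, and replicates 1 and 3 are the libraries with the larger summed values. Hp, the haptoglobin gene, had 83207, 138898 and 168444 in PH70 and 412295, 130724 and 602905 in PH80_HC (adjusted p = 0.291). The cholesterol synthesis list had 0 of 20 genes called (0 by edgeR, 1 by DESeq2 and 9 lower at an unadjusted p under 0.05), 19 with a lower mean and a median of -0.59 (PH80, -0.12). Idi1, an isomerase of the mevalonate pathway, had 291 to 430 and 35.0 to 232 (-2.10, adjusted p = 0.192). Cytosolic ribosomal protein genes had 0 of 30 called by limma, 0 by edgeR, 3 by DESeq2 and 25 at an unadjusted p under 0.05, with a median of 1.02, which was 0.32 with replicates 3 of both groups left out. Hp and Idi1 were named after their values were seen.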

How the data were processed

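Liver RNA of 12 libraries in 4 groups was analysed, with groups taken from the sample titles. Per the labels' protocols, libraries were made from total RNA with a stranded mRNA kit. GRCm38 (mm10) and DESeq2 are named per the submitters' processing notes, with the aligner, the counting tool, its use of strand and the gene annotation not given in the sources used here. In the authors' table, the deposited signal is a read count divided by 1 size factor per library: every value came out as a whole number of reads within 0.01, which gave about 9720000 to 40750000 recovered reads in the 6 libraries compared. Depth limits genes with few reads.

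Genes reaching 10 in 3 or more of the 6 libraries were tested as log2(value + 1), a pseudocount of 1 that understates the change of low genes. A gene below 10 in all PH70 libraries, such as Apol11b, Cux2, Gzmb, Cd8b1, Elane or Slc4a1, was tested only if PH80_HC was higher. The direction and the lack of overlap of such genes were thus set by the filter. Limma 3.58.1 (R 4.3.3) modelled the 12 libraries by group, with an intensity trend, two-sided, with Benjamini-Hochberg adjustment over 12253 genes and a threshold of 0.05. The fit was tested on simulated data. Alternatives used edgeR 4.0.16 and DESeq2 1.42.0 on the recovered reads, other scalings, filters, pseudocounts, a replicate block and each library left out. Gene lists (42, with 686 tested genes) got no set test; counts and medians are given. The members and lists were chosen with earlier results of these data known.

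Genes were named by a rule: up to 10 per direction with the largest difference among called genes with a mean of at least 50 and no overlap, up to 8 per direction of each kind, the 4 members with the lowest adjusted p in each list that held a call, and 20 fixed genes; predicted genes were left out of the first part. Coordinates are GENCODE M21 on GRCm38, where 13513 of 13554 symbols match 1 gene; Arhgap26 had no single match. Of the 27 called genes with a match, 4 overlap another gene model on the same strand and 14 one on the opposite strand. Promoter windows are RefSeq's (GRCm38.p6), with entries for 22 of the 28 called genes.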

Additional observations from a re-analysis of the deposited data

How the results depend on the processing

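Counts of called genes are 28 for PH80_HC against PH70, 478 for PH80 against PH70, 109 for PH80_HC against PH80, 13 that stay different and 6 new to the arm. Leaving out 1 library at a time gave 1 to 54, 59 to 717, 23 to 122, 0 to 16 and 1 to 8. Leaving out replicates 3 of PH70 and PH80_HC together gave 3 (1 of them among the 28), with 3 that stay different and 1 new. A minimum of 50 gave 18 for PH80_HC against PH70. Without the intensity trend it was 12, with 6 that stay different. Array weights gave 84 and 1769, with 52 that stay different. edgeR gave 14. DESeq2 gave 258, 951 and 488, with 97 that stay different and 49 new. Every library at the same total gave 226 for PH80 against PH70, 64 for PH80_HC against PH80 and 3 new to the arm. The cause of these moves was not tested. Counts were within 1.5 times of the main ones in the other settings.

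The replicate block gave 7 calls for PH80_HC against PH70, 285 for PH80 against PH70 and 63 for PH80_HC against PH80, with 4 that stay different and 1 new. Replicate numbers mark no shared animal or day in the labels, and deviations of same-numbered libraries of PH70 and PH80_HC correlated at -0.331, 0.0884 and -0.184, so the numbers were not taken as a pairing. None of the 28 called genes changed sign. Among the other named genes, 5 with a difference near 0 took both signs over their alternatives, namely Hnf4a (-0.13 to 0.20), Mki67 (-0.0034 to 0.52), Alb (-0.25 to 0.09), Cyp2e1 (-0.14 to 0.29) and Stab2 (-0.25 to 0.14). Low depth limits genes such as Apol11b, Gzmb and Cux2, with 6, 18 and 21 reads in all of PH70.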

Other observations

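The group with G-CSF and HNF4a entered the fit through its spread only, and its values for 12 of the 28 called genes are given here without a comparison. Rgs16 had 22.1, 3.96 and 25.8 normalised reads in PH80_G+H and Nr4a1 had 58.9, 201 and 89.1. Gdf15 had 1284, 1211 and 1294 and Dusp1 had 758, 1288 and 1127. Mup1 had 567, 392 and 453 and Mup7 had 19164, 12784 and 16355. Cux2 had 5.52, 5.44 and 8.16, Ccl5 had 16.6, 11.9 and 30.6, and Jchain had 53.3, 12.9 and 38.1. Akr1b7 had 138, 134 and 184, and Apoa4, the apolipoprotein, had 17995, 19784 and 24286. Themis had 25.8, 21.3 and 39.4, which overlaps its 29.0 to 65.6 in PH80_HC.

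Glycogen and glucose genes had no call in PH80_HC against PH70 in limma or edgeR (0 of 14 genes, 4 lower at an unadjusted p under 0.05, 2 by DESeq2), with a median of -0.44 (PH80, -0.67). Over all genes, 7.3% were lower at that p. G6pc, the phosphatase that releases glucose, had 5881, 8644 and 5983 in PH70, 4724, 3030 and 1987 in PH80_HC and 2454, 1794 and 1446 in PH80. PH70 lay above both 80% groups, which overlapped each other. Ppp1r3g, a glycogen-targeting subunit of protein phosphatase 1, had 57.5, 87.7 and 66.9 in PH70, 44.5, 26.3 and 14.3 in PH80_HC and 0, 0.748 and 1.04 in PH80. The stellate cell and matrix list had 0 of 20 genes called (0 by edgeR or DESeq2 and 7 lower at an unadjusted p under 0.05) and a median of -0.60. Its library means spread from -0.82 to 0.51 in PH70 and from -1.08 to -0.43 in PH80_HC, so the groups overlapped. These genes were named after their values were seen.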
